A study of Mus musculus with 18 samples.

Results

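Gp2 and 6 other genes that mark microfold (M) cells, Spib, Sox8, Ccl9, Ccl20, Tnfrsf11a and Tnfaip2, were followed through 18 RNA sequencing libraries of mouse colorectal tissue and tumor organoids. They are 7 of the 36757 genes of the count table and were taken from it by their symbols. The set was chosen by measured values, because Gp2 had drawn attention through its difference between genotypes in the organoids, so that difference is a description here and carries no test. All 18 libraries came from C57BL/6 mice given dextran sulfate sodium (DSS), an irritant of the colonic epithelium, and made up 6 groups of 3. The colitis libraries were from mice that entered at 6 to 8 weeks of age and drank 2% DSS for 7 days followed by 14 days of water in repeated cycles, and were sacrificed 4 weeks after the last cycle. The mice of the colitis-associated colorectal cancer (CAC) libraries also received 10 mg/kg of the carcinogen azoxymethane 4 days before the DSS. The organoids were grown in matrigel from tumors of the CAC mice. Within each of the 3 materials, 3 libraries were labelled wild type, which are RNF138fl/fl mice, and 3 RNF138-/-. How many animals gave the organoids, and which promoter or Cre line lies behind the deletion, is not given in the sources used here, and the tissue labels do not separate tumor from surrounding colon.

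M cells are rare epithelial cells that lie over lymphoid follicles and carry particles and microbes from the gut lumen to the immune cells beneath. They arise when stroma under the epithelium presents RANKL (Tnfsf11) to the receptor RANK, which Tnfrsf11a encodes, and NF-kB signaling below RANK then induces the transcription factors Spib and Sox8. Gp2, a receptor for bacterial FimH on the luminal face of mature M cells, depends on both factors. Ccl20 and Ccl9 are chemokines of the epithelium over follicles that draw cells bearing Ccr6 and Ccr1, and Tnfaip2 (M-Sec) helps membranes to form protrusions. None of these genes is restricted to M cells: B cells and plasmacytoid dendritic cells use Spib, macrophages make Ccl9, the acinar cells of the pancreas make Gp2, and TNF induces Tnfaip2 in many cell types.

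The promoters are printed because the members differ there in an NF-kB match, a pathway that RANK uses, and because Gp2 and Spib went separate ways in the data. RefSeq windows of the 250 bases before each gene's start were matched for all 7 members (GRCm38.p6). The starts are RefSeq's, and the gene positions given further on are GENCODE's, which begin further upstream for Tnfaip2, Gp2 and Tnfrsf11a, so that most of the Tnfaip2 window, its NF-kB match included, and the last bases of the other two lie inside the GENCODE gene. They were searched on both strands for the NF-kB consensus, for the Ets core GAGGAA to which Spi-B and its relatives bind, for the Sox core AACAAT, for the AP-1 motif TGANTCA and for TATAAA. In the 4 windows printed, capitals mark NF-kB and GAGGAA matches, and each sequence runs 5′ to 3′ along its gene.
Gp2 (chr7:119459273-119459522, minus strand): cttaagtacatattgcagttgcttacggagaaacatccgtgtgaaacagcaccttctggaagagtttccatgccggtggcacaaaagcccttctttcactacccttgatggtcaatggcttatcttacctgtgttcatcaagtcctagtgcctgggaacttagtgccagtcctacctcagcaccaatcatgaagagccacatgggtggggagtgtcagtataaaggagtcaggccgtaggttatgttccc
Spib (chr7:44532072-44532321, minus strand): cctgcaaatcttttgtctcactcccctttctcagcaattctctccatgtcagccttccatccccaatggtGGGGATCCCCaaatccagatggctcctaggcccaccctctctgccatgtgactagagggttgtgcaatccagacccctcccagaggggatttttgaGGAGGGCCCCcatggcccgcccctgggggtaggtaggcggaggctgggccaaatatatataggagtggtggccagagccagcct
Ccl20 (chr1:83116516-83116765, plus strand): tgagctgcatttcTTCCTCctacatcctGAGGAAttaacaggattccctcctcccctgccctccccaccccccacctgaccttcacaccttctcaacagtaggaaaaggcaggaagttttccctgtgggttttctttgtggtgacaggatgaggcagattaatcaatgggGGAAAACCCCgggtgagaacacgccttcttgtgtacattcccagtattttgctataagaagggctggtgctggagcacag
Tnfaip2 (chr12:111442411-111442660, plus strand): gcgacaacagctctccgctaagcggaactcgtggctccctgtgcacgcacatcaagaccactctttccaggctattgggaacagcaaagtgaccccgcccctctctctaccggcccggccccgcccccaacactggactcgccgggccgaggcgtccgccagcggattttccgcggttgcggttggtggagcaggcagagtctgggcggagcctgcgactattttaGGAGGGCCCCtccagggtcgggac
The NF-kB consensus stood in 4 of the 7 windows, those of Spib, Ccl9, Ccl20 and Tnfaip2, and in 7.25% of all 32841 windows of this length. In Ccl20 the match covered bases 80 to 71 before the start. The window of Gp2 held neither the NF-kB consensus nor GAGGAA and had TATAAA 32 to 27 bases before the start, a motif found in 12.4% of windows and in 2 members. GAGGAA stood in Ccl20 alone among the members against 23.3% of windows, and the Sox core in 0 of 7 against 9.43%. AP-1 letters stood in Ccl9 alone against 6.75% of windows. A match of letters is a description, and a missing match says only that these letters are not in the window.

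Total counts were between 11514716 and 24390082 per library, with a median of 17332367. Values are CPM, each gene's share of the reads of its library on a common scale, after TMM scaling, which corrects library totals for their composition, and groups were compared by edgeR's quasi-likelihood test with Benjamini-Hochberg adjustment over all genes. A gene was called at an adjusted p under 0.05 and a change of at least 2-fold. Rnf138, the targeted gene, did not fall in the libraries labelled RNF138-/-: it had 15.6 to 25.1 CPM in wild type and 18 to 19.4 CPM in RNF138-/- colitis, 21.5 to 27.6 and 39.7 to 45.8 CPM in CAC, and 37.7 to 55.7 and 42.8 to 50.3 CPM in the organoids, so every genotype difference below is a difference between labels. Counts over a whole gene cannot show whether some of its exons are deleted, so the knockout was not checked here. The paper describes an immunoblot of wild type and knockout mouse testes with its RNF138 antibody. In the organoids the sexes differed with the genotype: Xist was at 391 to 464 CPM in the wild type libraries and at most 0.159 CPM in the RNF138-/- libraries, and the 4 Y-linked genes measured had 0 counts in the wild type libraries only, so sex and genotype cannot be told apart there. In the 12 tissue libraries Xist stayed at or under 0.585 CPM and the Y-linked genes were present, with Eif2s3y low in RNF138-/- CAC libraries 1 (4.47 CPM) and 3 (0.815 CPM) against 90.8 CPM in library 2. CAC wild type library 2 held pancreatic acinar transcripts, given beside Gp2, and library 3 of that group stood apart from libraries 1 and 2, with 17.8 CPM of Marcksl1 against 241 and 175. Fewer cells of a type and less RNA per cell cannot be told apart in these bulk samples, and nothing says whether replicates are separate animals, so p-values measure the spread between libraries.

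Gp2 (chromosome 7, 119442537 to 119459285, minus strand, mm10) was nearly silent in colitis, present in CAC tissue and highest in wild type organoids. In wild type colitis it had 0.279, 0.112 and 0.124 CPM, which are 2 to 5 reads a library, and in RNF138-/- colitis 0.239, 0.54 and 0.722 CPM. In CAC the wild type libraries had 4.06, 17.6 and 1.99 CPM and the RNF138-/- libraries 3.56, 9.88 and 1.22 CPM, so that the genotypes overlapped and each spanned a wide range. In the organoids the wild type libraries had 26.2, 35.4 and 83.1 CPM and the RNF138-/- libraries 0.913, 0.529 and 0.971 CPM. The lowest wild type organoid library thus lay far above the highest RNF138-/- one, while the RNF138-/- organoids overlapped with RNF138-/- colitis. Group means ran from wild type organoids (48.2 ± 30.6, SD, n = 3) through wild type CAC (7.88 ± 8.47), RNF138-/- CAC (4.89 ± 4.48), RNF138-/- organoids (0.804 ± 0.24) and RNF138-/- colitis (0.5 ± 0.244) to wild type colitis (0.172 ± 0.0932). Only the steps from wild type organoids to wild type CAC and from RNF138-/- CAC to RNF138-/- organoids were free of overlap.

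**Figure D1:**
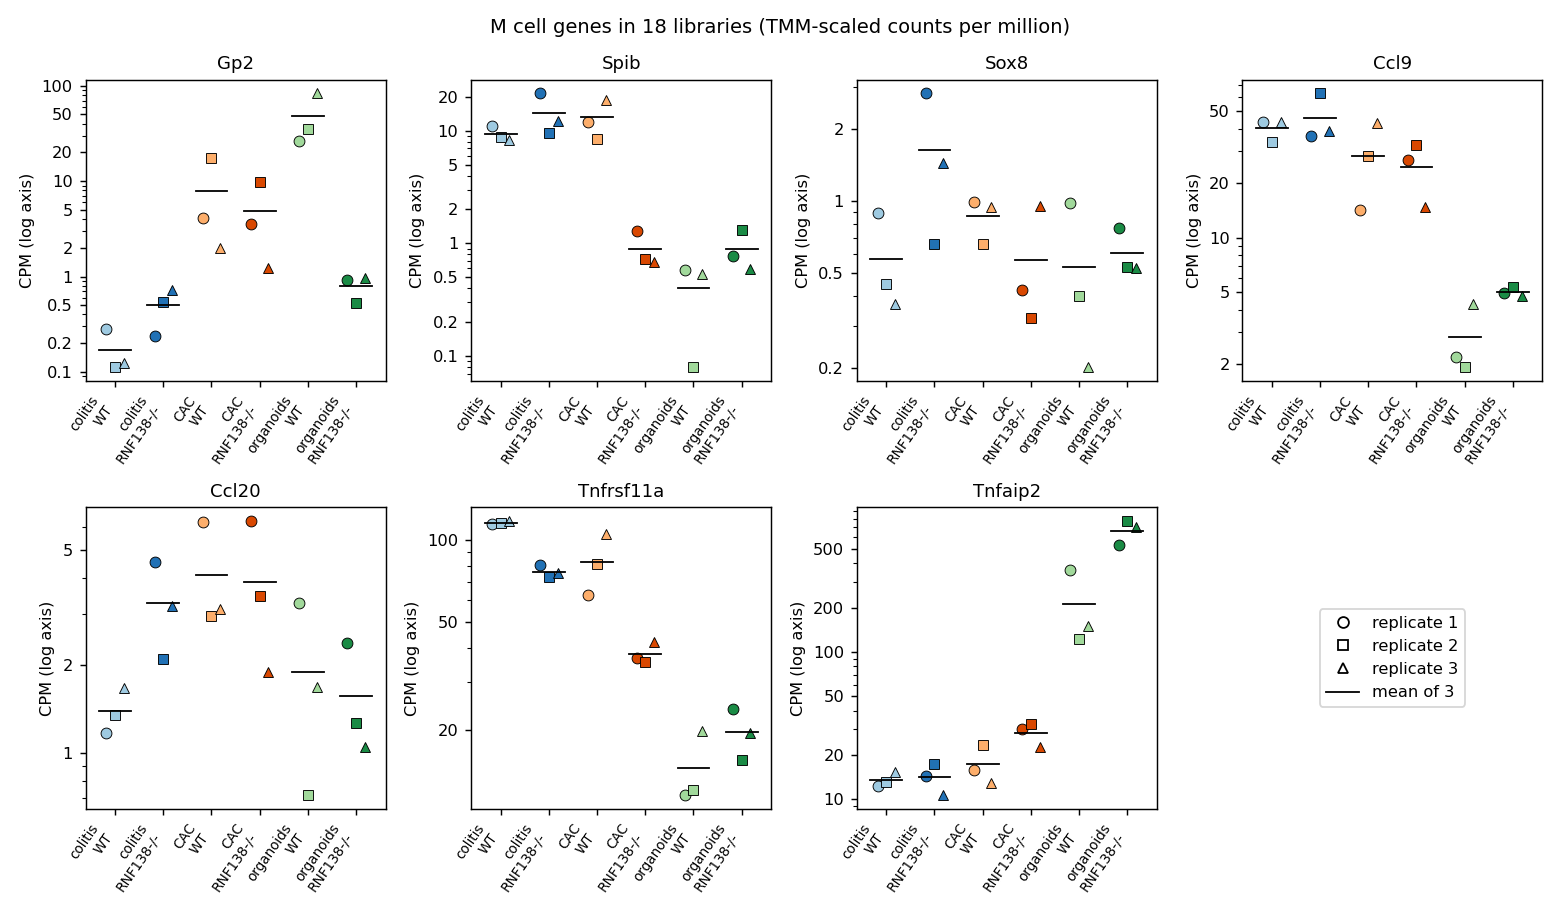
CPM (log axis) of the 7 genes in 18 libraries, by material and genotype; each point is a library, its shape the replicate number, and the line the mean of 3. Gp2 lies between 26.2 and 83.1 CPM in wild type organoids and under 1 CPM in RNF138-/- organoids, while Spib is at most 1.32 CPM in RNF138-/- CAC and in all organoids.

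Gp2 rose from colitis to CAC in both genotypes. In wild type the log2 fold change was 5.47 (adjusted p = 0.00132 by edgeR, SE 1.00), and 4.06 to 5.98 with each library left out. Gp2 was the only member called of 7 tested, beside 13.6% of the 19390 genes tested. In RNF138-/- the log2 fold change of Gp2 was 3.26 (SE 0.86, adjusted p = 0.00457), and 2.21 to 3.72 with each library left out. There 3 of 7 members and 37.1% of genes were called. In both genotypes all 3 CAC libraries lay above all 3 colitis libraries. Between genotypes Gp2 had a log2 fold change of -0.75 in CAC (SE 0.97, adjusted p = 0.605), which was 0.64 without CAC wild type library 2. In colitis its counts were too low for a test. With the filter on low counts removed, its log2 fold change there was 1.47 (SE 0.77, adjusted p = 0.683). The genotype difference in CAC minus that in colitis was -2.21 (SE 1.36, edgeR, adjusted p = 0.295), and -3.26 to -0.87 with each library left out.

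Pancreatic acinar cells also make Gp2, and their genes were measured beside it. Of 14 acinar genes, 9 were chosen after their values were seen, because the others were also present where these 9 were near 0. The 9 genes summed to 1560 CPM in CAC wild type library 2, to 100 CPM in library 3 and to 0.369 CPM in library 1. They summed to 0.526 to 0.543 CPM in the RNF138-/- CAC libraries, to 0.06 to 7.48 CPM in colitis and to 0.202 to 1.79 CPM in the organoids. Cpa1, the defining carboxypeptidase, had 242 CPM in CAC wild type library 2 and 0 counts in all 6 organoid libraries, a count that allows up to 3 reads. Over all 14 genes the sums were 231 to 2390 CPM in wild type CAC, 317 to 362 in RNF138-/- CAC, 96.1 to 207 in colitis, 204 to 349 in wild type organoids and 48.8 to 56.6 in RNF138-/- organoids. In the organoid comparison 2 of the 4 acinar genes tested, Cela1 and Pnliprp1, were called lower in RNF138-/-, beside 15.0% of all genes. Of the genes outside the 9, Pnliprp1 had 115 to 291 CPM in wild type and 17.5 to 24.3 CPM in RNF138-/- organoids, and Cela1 55.2 to 89.1 and 28.8 to 32.5 CPM, both lower in RNF138-/- as Gp2 was. The part of acinar transcripts in the values of Gp2 was not tested. Without CAC wild type libraries 2 and 3, the wild type rise from colitis to CAC rested on 1 CAC library, assumed to vary like the other groups, and was 4.49 (SE 0.97, edgeR, adjusted p = 0.00717).

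**Figure D2:**
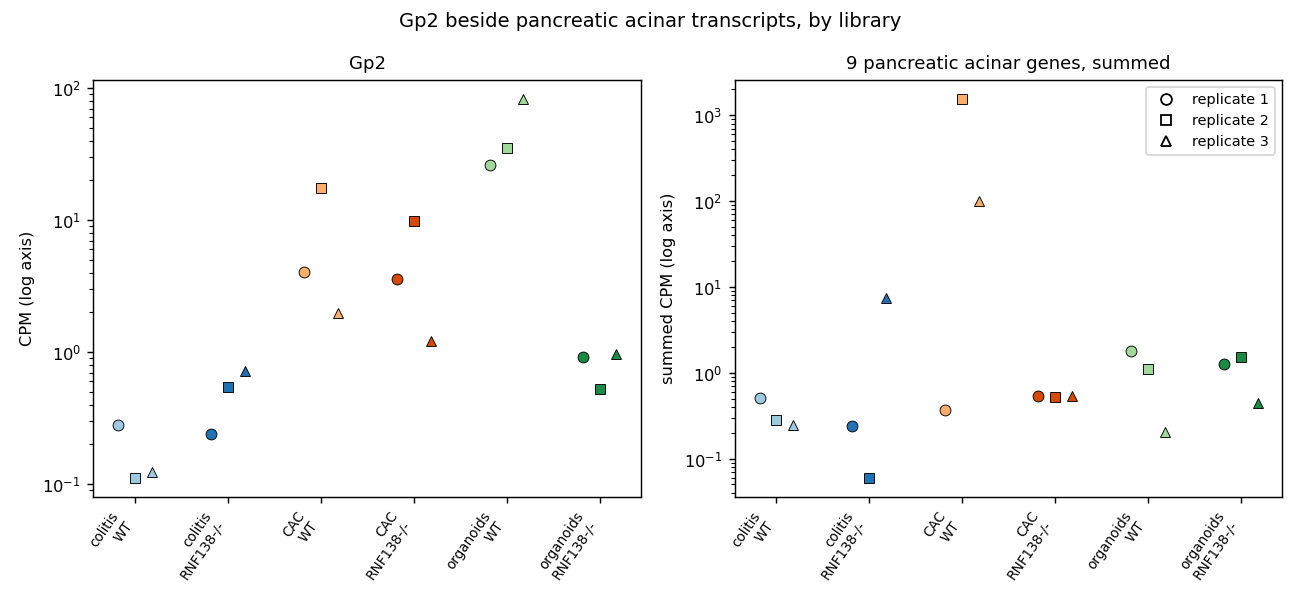
Gp2 in CPM (left, log axis) and the summed CPM of 9 pancreatic acinar genes (right, log axis) in each of 18 libraries; shapes give the replicate number. The 9 genes, chosen after their values were seen, reach 1560 CPM in CAC wild type library 2 and at most 1.79 CPM in the organoids; the whole list of 14 sums to 204 to 349 CPM in wild type organoids.

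The organoids gave Gp2 opposite differences from CAC tissue in the 2 genotypes, described here without a test. Wild type organoids exceeded wild type CAC by a log2 fold change of 2.59 (SE 0.73, 1.93 to 3.96 with each library left out), and every organoid library lay above every CAC library. RNF138-/- organoids lay below RNF138-/- CAC by -2.62 (SE 0.83, -3.09 to -1.59 with each library left out), again without overlap. Between the organoid genotypes the log2 fold change was -5.97 (SE 0.55), which is a mean 60-fold lower in RNF138-/-. Among the 15294 genes tested in the organoids, 15.0% passed both thresholds and 17.4% changed at least 2-fold. Of the 5 members with enough counts, 2 differed at least 2-fold, Gp2 and Tnfaip2, in opposite directions. The difference of Gp2 chose the set, so that count cannot be read against the shares of all genes. Without wild type library 3, 4 members were past 2-fold: Ccl9 (1.24) joined Gp2 and Tnfaip2, and so did Spib (1.31), which passed the filter on low counts in that fit.

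Spib (chromosome 7, 44525993 to 44532071, minus strand), the Ets factor required for mature M cells, followed another course than Gp2. Wild type colitis had 11.1, 8.71 and 8.24 CPM, and RNF138-/- colitis 21.4, 9.59 and 12.1. Wild type CAC had 11.9, 8.47 and 18.9 CPM. RNF138-/- CAC had 1.28, 0.729 and 0.679 CPM, below every library of the other 3 tissue groups. The organoids lay as low, at 0.577, 0.0798 and 0.54 CPM in wild type and 0.772, 1.32 and 0.597 CPM in RNF138-/-. Wild type organoids, with the highest Gp2, therefore had the lowest mean Spib of the 6 groups, 0.399 ± 0.277 CPM, on 1 to 10 reads a library.

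Spib fell in RNF138-/- CAC to a mean 14.6-fold lower (log2 -3.92, SE 0.44, adjusted p = 0.0198 by edgeR). It was 1 of 2 members called there with Tnfrsf11a, both lower, beside 5.37% of the 17752 genes tested. In colitis its log2 fold change was 0.61 (SE 0.32, adjusted p = 0.572). None of the 6 members tested in colitis was called by edgeR or by DESeq2, and 0.0902% of the 16623 genes tested were called by edgeR. Of the 6, 3 (Ccl20, Sox8 and Tnfrsf11a) had an unadjusted p under 0.05 in edgeR. The shares of all genes at an unadjusted p under 0.05 or called by DESeq2 are not given. Counts of those 2 kinds, here and below, therefore have no background to be read against. The difference between the 2 genotype effects, CAC minus colitis, was -4.49 (SE 0.63, edgeR, adjusted p = 0.000658), and Spib was the only member of 7 called there, beside 11.9% of genes. The call in CAC was lost without RNF138-/- library 1, 2 or 3, with adjusted p = 0.081, 0.114 and 0.0544, while the log2 fold change stayed between -4.26 and -3.54 over all 6 libraries left out in turn. Between the tissue models Spib did not pass the test in wild type (0.48, SE 0.41, adjusted p = 0.44) and fell in RNF138-/- (-4.00, SE 0.48, adjusted p = 1.1e-05).

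B cell transcripts were also lower in RNF138-/- CAC. The 8 B cell genes summed to 45.7 to 110 CPM in wild type CAC and 4.03 to 9.15 CPM in RNF138-/- CAC. Of the 8, 6 were called lower, beside 5.37% of all genes. Among the 6, Pax5, the factor that keeps B cell identity, had 2.65 to 7.88 CPM in wild type and 0 to 0.162 CPM in RNF138-/-. In colitis the sums were 31.3 to 42.6 CPM in wild type and 37.7 to 100 CPM in RNF138-/-, and in the organoids 0.448 to 1.96 CPM. From colitis to CAC in wild type, 4 of the 8 B cell genes were called higher, beside 13.6% of all genes. Spib was not called there. In RNF138-/- 8 of 8 were called lower, beside 37.1% of all genes, and so was Spib. Of the 5 plasmacytoid dendritic cell genes, 4 were tested in CAC and 2, Bst2 and Klk1, were called lower in RNF138-/-, beside 5.37% of all genes. Klk1, a tissue kallikrein, made up most of that list's sum, with 640 to 981 CPM in wild type and 37 to 150 CPM in RNF138-/- CAC. Siglech, the defining marker, had at most 0.554 CPM in CAC and was too low for a test, and Ccr9 was not called. The part of these cells in the change of Spib was not tested. By library, the order of the B cell sums was that of Spib in wild type colitis (42.6, 36 and 31.3 CPM), RNF138-/- colitis (100, 37.7 and 88 CPM) and RNF138-/- CAC (9.15, 5.34 and 4.03 CPM). It was not in wild type CAC (110, 45.7 and 51.6 CPM), where Spib was highest in library 3.

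**Figure D3:**
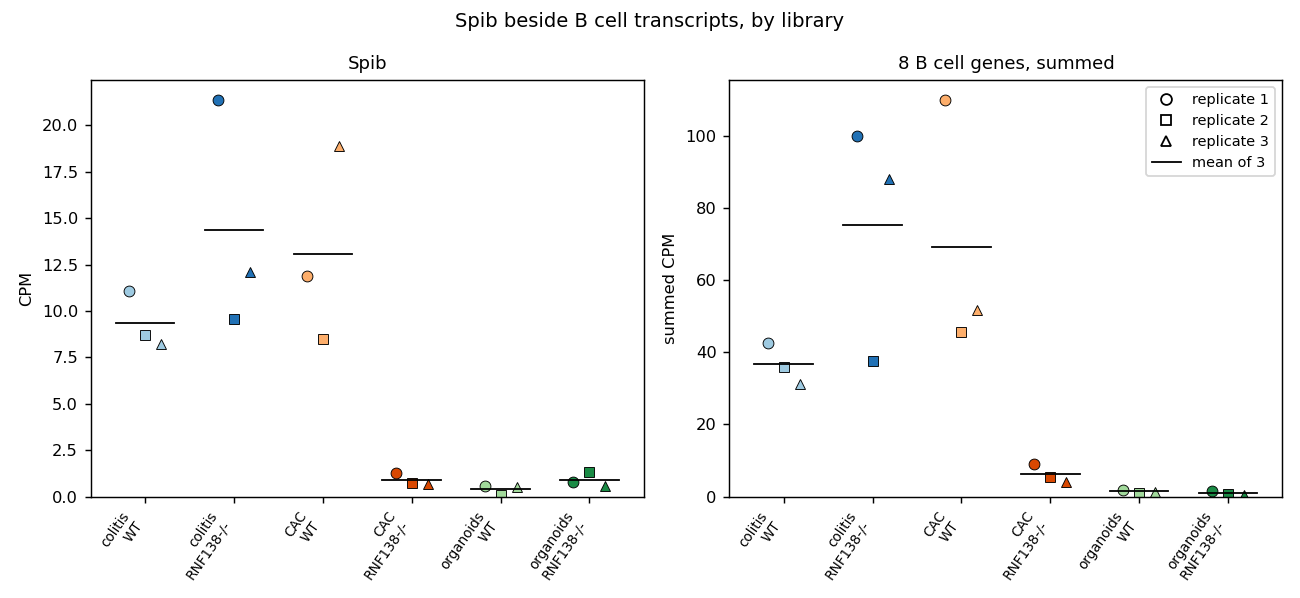
Spib in CPM (left) and the summed CPM of 8 B cell genes (right) in each of 18 libraries; shapes give the replicate number and lines the mean of 3. Both are lowest in RNF138-/- CAC and in the organoids, where Spib stays at or under 1.32 CPM.

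Sox8 (chromosome 17, 25565892 to 25570686, minus strand), the second transcription factor of the Gp2 program, was low everywhere. It lay between 0.324 and 2.81 CPM over the 12 tissue libraries and between 0.202 and 0.98 CPM over the 6 organoid libraries, on 3 to 47 reads. RNF138-/- colitis had the 2 highest libraries, 2.81 and 1.44 CPM, and overlapped with wild type through the third at 0.66 CPM. Between genotypes Sox8 had a difference of 1.49 in colitis (log2, SE 0.61, adjusted p = 0.446 by edgeR) and of -0.64 in CAC (SE 0.48, adjusted p = 0.372). In RNF138-/- CAC it was lower than in RNF138-/- colitis (log2 -1.52, SE 0.58, adjusted p = 0.0354), a call lost without RNF138-/- colitis library 1 (-0.90, adjusted p = 0.229) or CAC library 1 (-1.36, adjusted p = 0.103) or 2 (-1.23, adjusted p = 0.133), with library totals only (-1.19, adjusted p = 0.078) and in a fit of only the groups compared (-1.56, adjusted p = 0.0724). Exons of Sox8 overlap the antisense gene 2810468N07Rik over 329 bases, which had 574 reads in the 18 libraries against 246 of Sox8, so that the reads of both are uncertain where strand was not used.

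Tnfrsf11a (chromosome 1, 105780718 to 105847981, plus strand), the receptor RANK through which M cells are induced, was highest in wild type colitis and lowest in the organoids. It had 114, 115 and 117 CPM in wild type colitis and 80.8, 73.2 and 75.3 CPM in RNF138-/- colitis. In CAC it had 62.8, 81.2 and 105 CPM in wild type and 36.9, 35.6 and 42.2 CPM in RNF138-/-. RNF138-/- libraries lay below every wild type library in both tissue models. The organoids had 11.6, 12.1 and 19.9 CPM in wild type and 23.9, 15.6 and 19.6 CPM in RNF138-/-, with overlap, and a log2 fold change of 0.40 (SE 0.25) given without a test.

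Tnfrsf11a fell in RNF138-/- CAC (log2 -1.18, SE 0.22, adjusted p = 0.037 by edgeR), and in colitis it had -0.59 (SE 0.15, adjusted p = 0.215). The 2 genotype effects differed by -0.53 (SE 0.30, adjusted p = 0.255). Some epithelial transcripts were also lower in CAC. The 8 epithelial genes summed to 8470 to 16700 CPM in wild type and 6910 to 8410 CPM in RNF138-/-. None of the 8 was called by edgeR, 4 had an unadjusted p under 0.05, and DESeq2 called 3 lower, Krt8 (means of 4240 and 2020 CPM), Krt20 (1140 and 125 CPM) and Vil1 (756 and 372 CPM). The others differed less: Krt19 (2340 and 1500 CPM), Cldn7 (519 and 319 CPM), Epcam (1820 and 1560 CPM), Cdh1 (1030 and 920 CPM) and Krt18 (648 and 666 CPM). The median log2 fold change of the 8 was -0.73, against 0.01 over all genes. The interaction called 2 of the 8 lower, Krt8 and Krt20, beside 11.9% of all genes. The part of epithelial transcripts in the fall of Tnfrsf11a was not tested. The call in CAC was lost without wild type library 2 (-1.19, adjusted p = 0.0548) or 3 (-0.94, adjusted p = 0.0255) and without RNF138-/- library 1 (-1.15, adjusted p = 0.11), 2 (-1.11, adjusted p = 0.157) or 3 (-1.23, adjusted p = 0.0951), and with library totals in place of TMM (-0.88, adjusted p = 0.0453). CAC and colitis differed by -0.47 in wild type (SE 0.21, adjusted p = 0.126). In RNF138-/- the CAC mean was 0.5 times that of colitis (SE 0.21 on the log2 scale, adjusted p = 0.00104), the fitted change was just short of 2-fold, and it passed 2-fold without RNF138-/- colitis library 2 (-1.11) or 3 (-1.07) or CAC library 3 (-1.07), with RLE scaling (-1.05), with DESeq2 (-1.05) and in a fit of only the groups compared (-1.04). Against CAC it was lower in the organoids of both genotypes, called in wild type (-2.52, SE 0.23, adjusted p = 3.35e-07) and short of 2-fold in RNF138-/- (-0.96, SE 0.22, adjusted p = 0.00126), where leaving out CAC library 2 (-1.02) or organoid library 1 (-1.12), or scaling by library totals (-1.58), took it past 2-fold.

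The ligand and the decoy of RANK are shown in all groups for their role, chosen with their values seen. Tnfsf11 (RANKL) had 0.225 to 0.614 CPM in wild type colitis, 0.899 to 1.56 in RNF138-/- colitis, 0.988 to 1.7 and 1.31 to 2.76 in CAC, and 1.36 to 3.4 and 1.83 to 2.99 in the organoids. It was called higher in CAC than in colitis in wild type (log2 fold change 1.68, SE 0.49, edgeR, adjusted p = 0.0247) and not in RNF138-/- (0.54, SE 0.43, adjusted p = 0.301). The wild type call was lost without colitis library 2 (1.35, adjusted p = 0.114) or 3 (1.60, adjusted p = 0.0637) or CAC library 1 (1.66, adjusted p = 0.0633) or 3 (1.47, adjusted p = 0.0588), and in a fit of only the groups compared (1.69, adjusted p = 0.0517). Tnfrsf11b, which encodes osteoprotegerin, the soluble decoy that binds RANKL, had 3.24 to 4.21 CPM in wild type colitis and 7.17 to 9.29 CPM in RNF138-/- colitis. In CAC it had 94.7, 90.1 and 14.2 CPM in wild type and 299, 232 and 164 CPM in RNF138-/-, and in the organoids 309 to 418 and 228 to 291 CPM. Tnfrsf11b rose from colitis to CAC by 4.17 in wild type (SE 0.50, adjusted p = 4.93e-05) and by 4.83 in RNF138-/- (SE 0.51, adjusted p = 4.08e-06). Between genotypes it had 1.14 in colitis (SE 0.24, adjusted p = 0.179) and 1.76 in CAC (SE 0.65, adjusted p = 0.118), neither called by edgeR and both called by DESeq2.

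**Figure D4:**
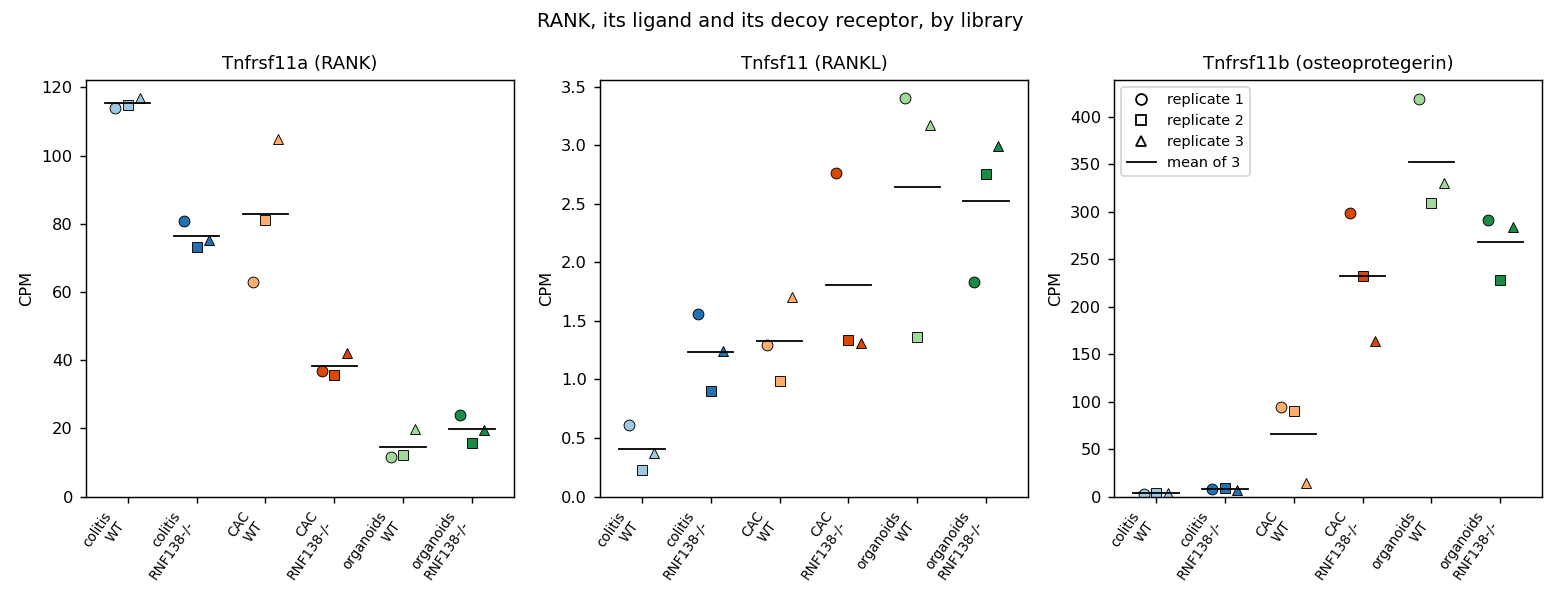
Tnfrsf11a (RANK), Tnfsf11 (RANKL) and Tnfrsf11b (osteoprotegerin) in CPM in each of 18 libraries, each panel with its own axis from 0; shapes give the replicate number and lines the mean of 3. Tnfrsf11a is highest in wild type colitis at 114 to 117 CPM, where Tnfrsf11b is lowest at 3.24 to 4.21 CPM.

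Ccl20 (chromosome 1, 83116766 to 83119167, plus strand), the ligand of Ccr6, stayed low in all groups. Wild type colitis had 1.17, 1.35 and 1.67 CPM, and RNF138-/- colitis 4.55, 2.1 and 3.2 CPM, without overlap. Its log2 fold change there was 1.23 (SE 0.37, edgeR, adjusted p = 0.3). CAC had 6.22, 2.96 and 3.12 CPM in wild type and 6.27, 3.48 and 1.9 CPM in RNF138-/-, a difference of -0.13 (SE 0.51, adjusted p = 0.877). The organoids had 3.29, 0.718 and 1.69 CPM in wild type and 2.39, 1.27 and 1.05 CPM in RNF138-/-. The wild type difference of CAC from colitis was 1.55 (SE 0.54, adjusted p = 0.0536), which passed the test without CAC wild type library 3 (1.71, adjusted p = 0.0473) and under 5 other alternatives, DESeq2 among them (adjusted p = 0.0286). Ccl20 was lower in RNF138-/- organoids than in RNF138-/- CAC (-1.30, SE 0.54, adjusted p = 0.0456), a call lost without CAC library 1 (-0.79, adjusted p = 0.235) or 2 (-1.39, adjusted p = 0.0626) or organoid library 2 (-1.16, adjusted p = 0.134) or 3 (-1.09, adjusted p = 0.148), and in a fit of only the groups compared (-1.27, adjusted p = 0.0522). In wild type the same comparison gave -1.09 (SE 0.53, adjusted p = 0.086) and -1.75 without organoid library 1 (adjusted p = 0.0207), -1.30 with library totals only (adjusted p = 0.0425). Its receptor gene Ccr6, carried by B cells and dendritic cells, had 1.93 to 4.12 CPM in wild type CAC and 0.181 to 1.06 CPM in RNF138-/- CAC (log2 fold change -2.04, SE 0.62, adjusted p = 0.083), a difference called by DESeq2 (adjusted p = 0.0166) and in the fit of all 18 libraries (adjusted p = 0.0351). In colitis it lay the other way without overlap, at 0.449 to 0.782 CPM in wild type and 1.08 to 4.54 CPM in RNF138-/- (1.90, SE 0.61, adjusted p = 0.33). The interaction was called (-3.88, SE 0.92, adjusted p = 0.0128). Against colitis, CAC had more Ccr6 in wild type (2.14, SE 0.66, adjusted p = 0.0318) and less in RNF138-/- (-1.74, SE 0.64, adjusted p = 0.0303). The wild type call was lost without CAC library 1 (adjusted p = 0.133) or any of the 3 colitis libraries (0.0704 to 0.124), and the RNF138-/- call without colitis library 3 (-0.91, adjusted p = 0.232) or CAC library 2 (adjusted p = 0.051) or 3 (-1.28, adjusted p = 0.11), with library totals only (adjusted p = 0.061), with the replicate block (adjusted p = 0.0503) and in a fit of only the groups compared (adjusted p = 0.0802).

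Ccl9 (chromosome 11, 83572919 to 83578636, minus strand), a ligand of Ccr1, belonged to the tissue libraries. It lay between 14.2 and 62.8 CPM over the 12 tissue libraries and between 1.92 and 5.35 CPM over the 6 organoid libraries, with no overlap. The genotypes overlapped in colitis (0.19, SE 0.25, edgeR, adjusted p = 0.86) and in CAC (-0.26, SE 0.46, adjusted p = 0.708). Against CAC, Ccl9 was lower in the organoids of wild type (-3.33, SE 0.42, adjusted p = 7.25e-06) and of RNF138-/- (-2.30, SE 0.39, adjusted p = 0.000128). RNF138-/- CAC differed from RNF138-/- colitis by -0.90 (SE 0.37, adjusted p = 0.0488), short of 2-fold, and was past it without colitis library 1 (-1.04) or 3 (-1.06) or CAC library 2 (-1.15). In the organoids it had 2.19, 1.92 and 4.32 CPM in wild type and 4.91, 5.35 and 4.78 CPM in RNF138-/-, without overlap. The 10 genes of macrophages and neutrophils, cells that also make Ccl9, summed to 338 to 1070 CPM in CAC, to 24.5 to 35.7 CPM in wild type organoids and to 102 to 155 CPM in RNF138-/- organoids, where 4 of 7 tested (Adgre1, Itgam, C1qa and Lyz2) were higher and S100a8 lower, beside 15.0% of all genes called. Their part in the values of Ccl9 was not tested. The receptor gene Ccr1 had means of 8.13 CPM in wild type colitis and 13.7 CPM in wild type CAC. In RNF138-/- its means were 7.9 CPM in colitis and 18.1 CPM in CAC. Of the 2 receptor genes, Ccr1 was called higher in RNF138-/- CAC than colitis and Ccr6 lower, beside 37.1% of all genes. In wild type only Ccr6 was called, beside 13.6%.

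Tnfaip2 (chromosome 12, 111442469 to 111455018, plus strand) was the member with the highest mean in the organoids of both genotypes. Its 12 tissue libraries lay between 10.7 and 32.3 CPM. Wild type organoids had 357, 123 and 150 CPM and RNF138-/- organoids 528, 772 and 700 CPM, so that every organoid library lay above every tissue library and the genotypes did not overlap. Per kilobase of exon, where genes can be compared, it reached 134 ± 25.2 (SD, n = 3) in RNF138-/- organoids against 0.402 ± 0.12 for Gp2, and 42.2 ± 25.7 in wild type organoids against 24.1 ± 15.3 for Gp2. In wild type organoid library 3 Gp2 was the higher on this scale, 41.6 against 30.2. Against CAC Tnfaip2 rose in wild type organoids by 3.59 (SE 0.37, edgeR, adjusted p = 1.02e-06) and in RNF138-/- organoids by 4.56 (SE 0.38, adjusted p = 1.19e-07). Between the organoid genotypes its log2 fold change was 1.63 (SE 0.38), given without a test. In CAC it had 15.8, 23.5 and 12.9 CPM in wild type and 30.1, 32.3 and 22.6 CPM in RNF138-/- (0.65, SE 0.26, adjusted p = 0.136). RNF138-/- CAC differed from RNF138-/- colitis by 1.00 (SE 0.34, adjusted p = 0.0201), just short of 2-fold, and was past it without colitis library 1 (1.01) or 2 (1.09) or CAC library 3 (1.14) and with library totals only (1.32).

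For organoids against CAC in wild type, 4 of the 6 members tested were called, with Tnfaip2 higher and Spib (-4.95, SE 0.53, edgeR, adjusted p = 1.72e-06), Ccl9 and Tnfrsf11a lower, beside 44.3% of all genes. In RNF138-/- 3 of 6 were called, with Tnfaip2 higher and Ccl9 and Ccl20 lower, beside 44.4% of genes. Spib, already low in RNF138-/- CAC, did not differ there beyond its error (0.04, SE 0.49, adjusted p = 0.944). The RNF138-/- share is near that of all genes. Comparisons that share CAC libraries are not independent of each other. With library totals in place of TMM the median of all genes itself moved to -0.30 and -0.84 here, and to 0.27 between genotypes in CAC, so small differences are relative to the scaling.

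**Figure D5:**
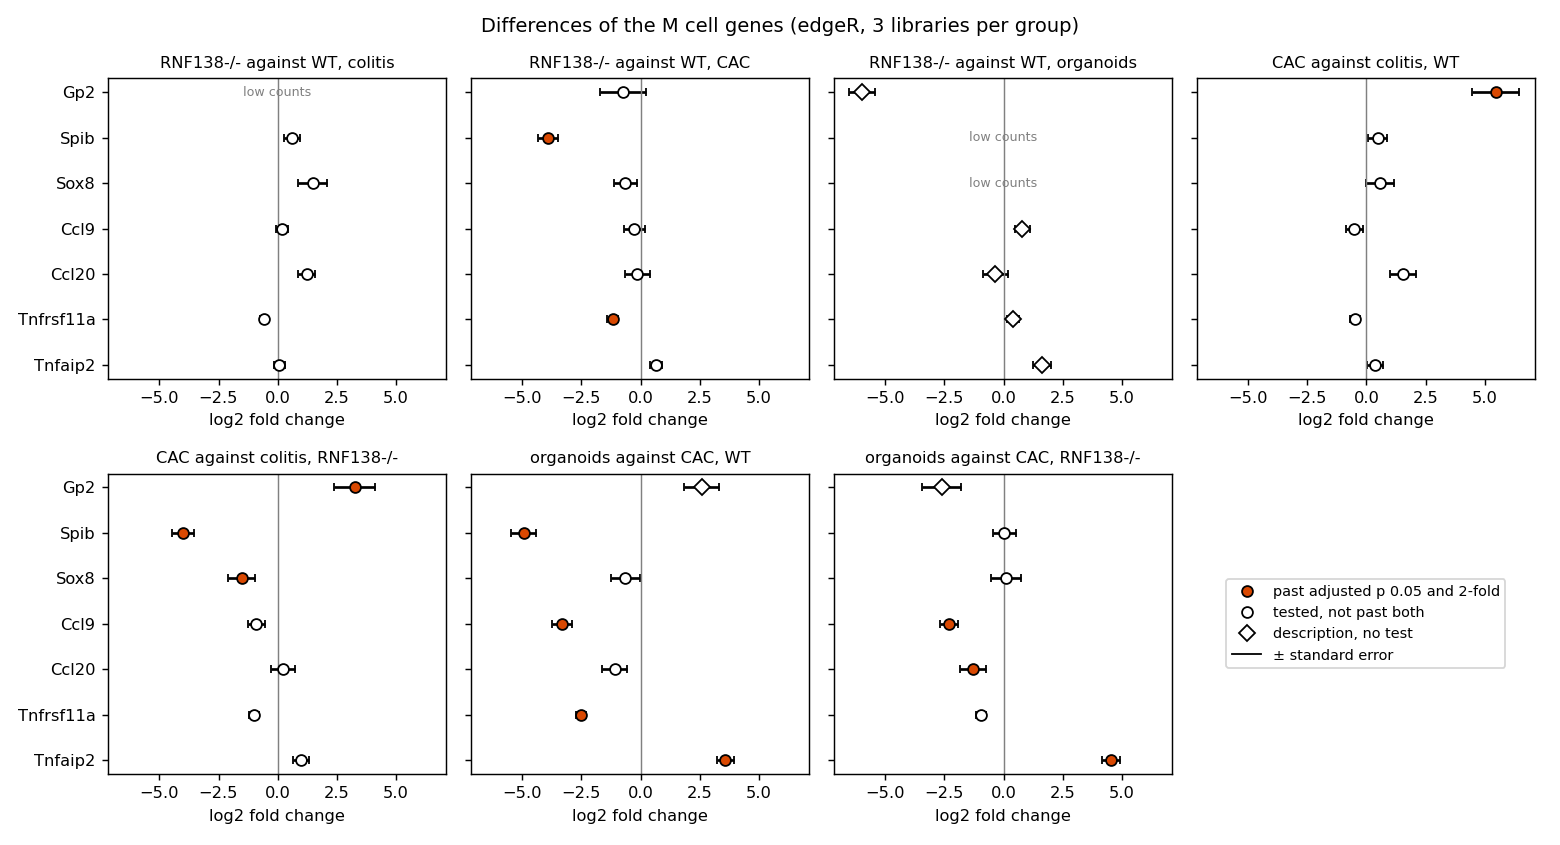
Log2 fold change of each gene (points) with its standard error (bars) in 7 comparisons; filled circles passed an adjusted p of 0.05 and 2-fold, open circles did not, and diamonds are descriptions without a test. Gp2 is higher in CAC than in colitis in both genotypes, while Spib and Tnfrsf11a are lower in RNF138-/- CAC.

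The 19 other genes of M cells and of the epithelium over follicles did not move as a block. In colitis 0 of 18 tested were called by edgeR, 3 had an unadjusted p under 0.05, DESeq2 called 2, and edgeR called 2 with no filter on low counts and 1 with the replicate block. In CAC 2 of 18 were called, beside 5.37% of all genes, both lower in RNF138-/-: Prnp, the prion protein that M cells carry on their luminal face (81.8 to 238 CPM in wild type, 29 to 39.7 in RNF138-/-, -2.02, SE 0.44, edgeR, adjusted p = 0.0481), and Scg5, a secretory granule chaperone (2.35 to 5.49 against 0.372 to 1.04 CPM, -2.43, SE 0.51, adjusted p = 0.0474). Both calls were lost without CAC wild type library 1 or 2 or any of the 3 RNF138-/- libraries, which left 0 of 18. With library totals only, 1 of 18 was called. The median log2 fold change of the list in CAC was 0.07, against 0.01 over all genes. In the organoids 2 of 13 were called lower in RNF138-/-, a share near the 15.0% of all genes: Pglyrp1, a peptidoglycan-binding protein found in M cells and neutrophils, fell from 1620 to 3130 CPM in wild type to 413 to 582 CPM (-2.13, SE 0.29, adjusted p = 0.00234), and Fabp5, a fatty acid carrier, had a mean of 62.8 CPM in wild type and 20.9 CPM in RNF138-/- (-1.62, SE 0.22, adjusted p = 0.00237). Wild type organoids against wild type CAC also held Pglyrp1 (2.56, SE 0.44, adjusted p = 0.000123) and Fabp5 (1.83, SE 0.24, adjusted p = 1.35e-05) among 5 genes higher and 8 lower of 18, beside 44.3% of all genes called. In RNF138-/- the same comparison had 2 higher and 7 lower of 18, beside 44.4% of all genes. Pglyrp1 (509 CPM in organoids, 538 in CAC) and Fabp5 (20.9 and 23.6 CPM) were not among them. From colitis to CAC, Clu, Marcksl1 and Ubd rose in both genotypes and were the 3 genes of 18 called in wild type, near the 13.6% of all genes. In RNF138-/- 4 were higher, with Pglyrp1 (1.15, SE 0.42, adjusted p = 0.028) as the fourth, and 3 lower, Scg5 (-3.24, SE 0.41, adjusted p = 1.79e-05), Prnp (-2.60, SE 0.33, adjusted p = 1.56e-05) and Fut1 (-1.91, SE 0.48, adjusted p = 0.00352), beside 37.1% of all genes. The wild type count was 6 without CAC wild type library 3.

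Of the 18 genes of RANK and NF-kB signaling, 0 were called between genotypes in colitis or CAC by edgeR fitted within each model, with 4 of 17 and 6 of 18 at an unadjusted p under 0.05, and DESeq2 called 2 in each. In edgeR 1 was called in colitis with no filter on low counts, and in CAC 2 in the fit of all 18 libraries and 1 without wild type library 3. In the organoids 2 of 17 were called, a share no higher than the 15.0% of all genes: Map3k14, the kinase NIK of the noncanonical pathway that RANK uses, was higher in RNF138-/- (10.2 against 4.79 CPM, log2 fold change 1.04, SE 0.25, edgeR, adjusted p = 0.0159), and Ltb, a lymphotoxin subunit, was lower (0.689 against 1.96 CPM, log2 fold change -1.53, SE 0.41, adjusted p = 0.0229). That count was 0 without wild type library 2 or 3 or RNF138-/- library 2, and 1 without RNF138-/- library 1 or 3 or with library totals only. Organoids against CAC had Rela higher in wild type (237 against 51.4 CPM, adjusted p = 4.71e-06) and in RNF138-/- (250 against 63.7 CPM, adjusted p = 1.08e-05), and Nfkb1 likewise (194 against 83.4 and 258 against 111 CPM). In all, 3 genes of the list were higher and 2 lower in wild type and 5 higher and 3 lower in RNF138-/-. Both counts, of 18 genes, stand beside 44.3% and 44.4% of all genes. The wild type count of 5 was 10 without organoid library 2.

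Over the 18 libraries, where the organoid values by which Gp2 was chosen weigh most, the correlation of log2 CPM with Gp2 was -0.53 for Spib, -0.38 for Sox8, -0.55 for Ccl9, 0.07 for Ccl20, -0.57 for Tnfrsf11a and 0.29 for Tnfaip2. With group means taken off, the 21 pairs of members had correlations between -0.55 and 0.52, with a median of 0.07. The genes most like Gp2 among 19388 were Gm33195 (r = 0.92), Gm14719 (0.91), Orm1 (0.90), Plcg2 (0.89) and Gm16063 (0.87). After group means were taken off they were C230057M02Rik (0.87), Mug2 (0.86), Arnt2, Tmprss11d and Gm1969 (0.85 each). Of the 50-base windows in the exons of Gm14719, 83.5% also occur in another gene, and of those of Orm1 20.4%, so reads of both are uncertain. Log2 values had 0.5 CPM added, the points share groups and library totals, and the correlations are descriptions.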

How the data were processed

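RNA was sequenced from 12 mouse colorectal tissue libraries and 6 organoid libraries. The authors deposited a table of gene counts, whole reads per gene and not normalized. The submitters' processing notes name mm10, STAR 2.6.1d, HTSeq 0.11.2 and DESeq2, while the published methods name Cufflinks. Use of strand is not given in the sources used here. A second deposited table with the authors' own fold changes and p-values was not used.

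Totals ran from 11514716 to 24390082 counts, and low counts limit Gp2 in colitis and Spib and Sox8 in the organoids. Groups came from the labels. Genes passing filterByExpr were fitted with edgeR 4.0.16 (R 4.3.3, TMM, quasi-likelihood test, Benjamini-Hochberg adjustment over all genes). Genotypes were fitted within each material, and the other comparisons in a fit of all 18 libraries. Genes were called past 2-fold at an adjusted p under 0.05. Alternatives were RLE scaling, library totals, no filter, DESeq2 1.42.0, the replicate number as a block, other sets of libraries in the fit and leaving out each library. Scripts were tested on simulated data. No 2 libraries of a group agreed within sampling noise.

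The members and lists were chosen with earlier results of these data known. Named were the 7 members, called genes of the lists (at most 5 per list and comparison), and the 5 genes most like Gp2 by each of 2 measures. Other genes were named for their role after their values were seen. Positions are from GENCODE M21, which matched 36700 genes (99.84%). Some genes of the marker lists are not reported here by name.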

Additional observations from a re-analysis of the deposited data

Results flagged for a closer look

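The genotype difference of Spib differed between the tissue models, with a log2 interaction of -4.49 (SE 0.63, adjusted p = 0.000658 by edgeR, range 1.94e-11 to 0.00367 over 18 alternatives). All 8 B cell genes were called lower by the same interaction, beside 11.9% of all genes.

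Spib was lower in every RNF138-/- library of CAC (a mean 0.0683 times that of wild type) and higher in every RNF138-/- library of the organoids (2.25 times), where counts were too low for a test. The difference between CAC and organoids was not tested.

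Gp2 was higher in every wild type organoid library than in every wild type CAC library (6.12 times in the mean) and lower in every RNF138-/- organoid library than in every RNF138-/- CAC library (0.165 times). This difference was not tested, since the organoid values of Gp2 chose it.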

How the results depend on the processing

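The count of members called between genotypes in CAC, 2, was 1 with library totals only, 0 without CAC wild type libraries 2 and 3 (chosen after seeing the data) and 0 to 2 with each library left out. From colitis to CAC in wild type the count of 1 became 2 with library totals only, with no filter on low counts, with DESeq2, with the replicate block and with only the groups compared, in each case by Ccl20, and was 1 to 2 with each library left out. It was 2 to 5 in RNF138-/- (main count 3), 4 to 5 and 2 to 4 for organoids against CAC in wild type and RNF138-/-, and 2 to 4 by fold alone between organoid genotypes, counted over the members that passed the filter on low counts in each fit. The causes were not tested.

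Signs turned for small differences. With library totals only, the log2 fold change between genotypes in CAC was 0.06 for Ccl9 and 0.11 for Ccl20, and for RNF138-/- organoids against CAC -0.58 for Spib and -0.52 for Sox8. Without both CAC wild type libraries 2 and 3, Gp2 had 0.25 and Ccl9 0.78 in CAC. With each library left out, the log2 fold change in colitis ran from -0.11 to 0.34 for Ccl9 and changed sign for Tnfaip2 (-0.00 and -0.11). The range in CAC was -1.76 to 0.64 for Gp2, -0.59 to 0.19 for Ccl9 (also 0.03) and -0.66 to 0.29 for Ccl20 (also 0.22). For Ccl20 between the tissue models in RNF138-/- it was -0.28 to 0.57 (also -0.07). RNF138-/- organoids against CAC gave -0.36 to 0.36 for Spib (also -0.10 and -0.13) and -0.20 to 0.68 for Sox8 (also -0.07 and -0.10), and the interaction -0.75 to 0.03 for Ccl9. Gp2 from colitis to CAC kept its call under every alternative run, with adjusted p between 1.99e-08 and 0.0141 in wild type and between 0.000158 and 0.0397 in RNF138-/-. The adjusted p of Spib in CAC ran from 6e-15 to 0.114.

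Whether replicate numbers pair the libraries was not settled. The deviations of same-numbered libraries of the 2 genotypes correlated at 0.23, 0.092 and 0.483 (colitis), at 0.0285, 0.207 and 0.0702 (CAC) and at -0.181, -0.0737 and 0.0545 (organoids). Libraries with unlike numbers were not compared as a baseline. With the replicate block, Ccl20 passed the test from colitis to CAC in wild type (1.40, adjusted p = 0.0275) and for wild type organoids against CAC (-1.16, adjusted p = 0.023), and Tnfrsf11a passed 2-fold from colitis to CAC in RNF138-/- (-1.01). No other call of a member changed. A fit with sex as a term was not run, since the 12 tissue libraries were of 1 class by Xist and 3 of the 4 Y-linked genes (Eif2s3y was low in RNF138-/- CAC libraries 1 and 3). Depth limits Gp2 in colitis, where 2 to 14 reads were counted per library.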
